A study of Mus musculus with 12 samples.

Results

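Muscle progenitors of the head and of the trunk were compared at embryonic day 10.5 (E10.5) of the mouse, a stage at which muscle is forming in both regions. The comparison rests on 4 of the 12 arrays of the study, picked by their sample titles: 2 arrays of head muscle progenitors and 2 of trunk muscle progenitors. The other 8 arrays, head and trunk cells at E9.5 and at E11.5 with 2 arrays each, served to estimate the spread and to set the same difference beside the earlier and the later stage. Embryos were of the outbred ICR strain, and all groups carried Myf5Cre with RosaYFP. Cre made where Myf5 is active switches on a yellow fluorescent protein for good. Cells with present or past Myf5 activity, and their daughters, were thus collected by fluorescence from dispersed head or trunk tissue. The sort therefore collects every cell in which Cre acted, whether or not that cell is still in the muscle lineage. The labels give neither the kind of Myf5Cre allele nor whether the 2 arrays of a group came from separate litters or pools. The p-values then measure only the spread between these samples, which may be technical.

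Skeletal muscle of the trunk comes from somites. Their dorsal layer, the dermomyotome, gives rise to the myotome under factors such as Pax3. Most head muscle comes from unsegmented pharyngeal mesoderm, which shares its origin with part of the heart. It relies on factors such as Tbx1, Msc and Tcf21 and not on Pax3. Both routes lead to the same myogenic basic helix-loop-helix factors, of which Myf5 and Myod1 commit cells and Myog starts differentiation.

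The median signal of the 12 arrays lay between 108.6 and 110.4 intensity units. Across genes, the 2 head arrays of E10.5 correlated with Pearson r = 0.957 and the 2 trunk arrays with r = 0.981 (genes are not independent). The median absolute difference between the 2 arrays was log2 0.269 in head and 0.169 in trunk. Each measure of transcript coverage separated the groups, but the measures did not share a direction. The 3′ control probe sets exceeded those of the transcript middle by log2 1.56 and 1.57 in head, against 2.24 and 2.43 in trunk (mean of Actb and Gapdh). At E9.5 and at E11.5 head and trunk arrays overlapped in this measure. The 3′ to 5′ differences also separated the regions, but in opposite directions. That of Gapdh was 5.978 and 5.755 in head, against 5.419 and 5.578 in trunk. That of Actb was 5.462 and 5.279 in head, against 5.701 and 5.736 in trunk. The mean log2 signal of the spike-in controls was 10.71 and 10.33 in head, against 10.07 and 10.05 in trunk. A fit with the 3′ to middle measure as a covariate, chosen after it had been seen, called 45 genes where the fit without it called 349. The transcript Xist, which coats the inactive X chromosome, was at 163 and 5006 in head, against 82.6 and 4132 in trunk, so that replicate 1 was low in both regions. Without both arrays numbered 1, 34 genes were called, and all 34 were among the 349. Each array left out alone gave 99 genes without head replicate 1, 484 without head replicate 2, 74 without trunk replicate 1 and 64 without trunk replicate 2. Of the 349 genes 44 stayed called at each of these 4 omissions, 22 higher and 22 lower in head, and 33 of the 44 were also called with the coverage covariate.

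**Figure D1:**
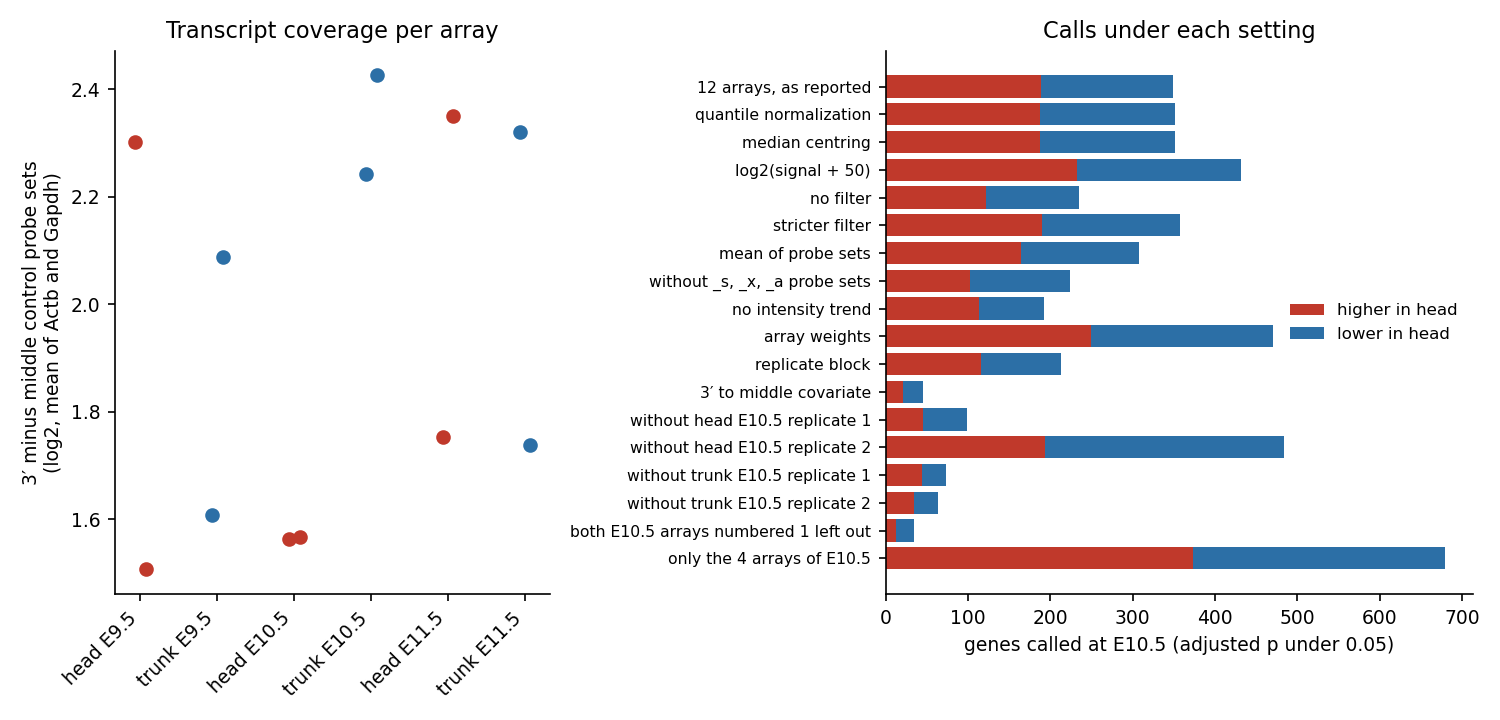
Left, log2 difference between 3′ and middle control probe sets (mean of Actb and Gapdh) for each of the 12 arrays, 2 points a group; the head arrays of E10.5 lie at 1.56 and 1.57 and the trunk arrays of E10.5 at 2.24 and 2.43. Right, number of genes called between head and trunk at E10.5 (horizontal axis) under each setting (rows), higher in head in red and lower in blue; the count is 349 as reported and 45 with the coverage covariate.

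Of 7722 genes tested, 349 differed between head and trunk at E10.5 (limma with Benjamini-Hochberg adjustment at 0.05; 4.52% of genes), 189 higher in head (2.45%) and 160 lower (2.07%). In all 349 the 2 head arrays and the 2 trunk arrays did not overlap, which held for 58.4% of all genes tested (28.2% higher and 30.2% lower in head). The difference exceeded log2 2 in 31 of the higher and 51 of the lower genes, while the median over all genes was −0.01. The head side was led by transcription factors of the pharyngeal arches together with genes of vessels, leukocytes and epithelium, and the trunk side by Hox genes and somite factors. In sorted cells measured in bulk, a lower signal cannot be told apart between fewer cells of a type and less RNA per cell. A fold is written "at least" where an array of the dimmer region lay below the median probe set of that array, and that array was then raised to the median.

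**Figure D2:**
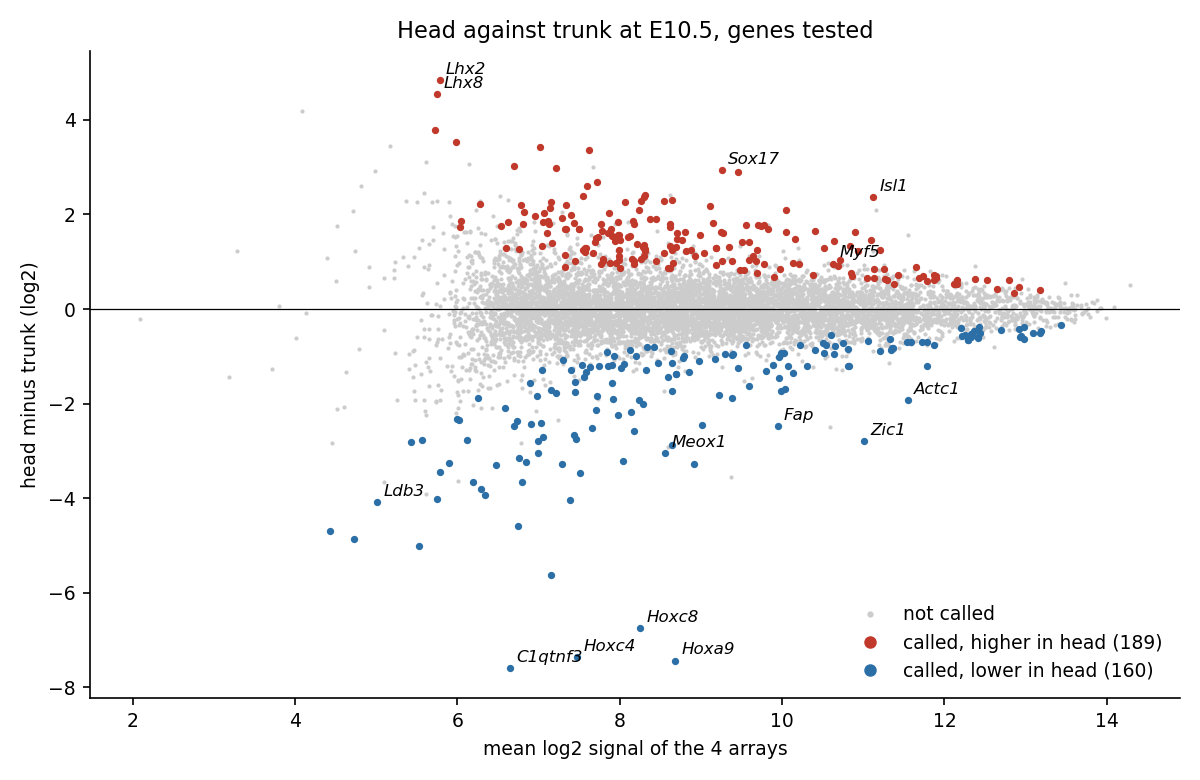
Head minus trunk difference (log2, vertical axis) against the mean log2 signal of the 4 arrays (horizontal axis) for the genes tested at E10.5. The 189 called genes higher in head are red, the 160 lower ones blue, the others grey; Hoxa9, Hoxc8, Hoxc4 and C1qtnf3 lie lowest.

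Of 17 tested regulators of pharyngeal mesoderm and head muscle, 8 were higher and 1 was lower in head, and the list had a median of log2 1.77, or 0.61 with dim arrays raised to the median, beside −0.01 over all genes. Musculin (Msc), a basic helix-loop-helix repressor of branchial arch muscle, had signals of 1674 and 2194 in head, against 309 and 212 in trunk, a 7.49-fold difference (log2 2.90 ± 0.31, adjusted p = 0.000546, SE from limma, n = 2 arrays per region). Tcf21, its relative in the same precursors, had 532 and 749 in head, against 74.4 and 50.6 in trunk (at least 5.74-fold, log2 3.36 ± 0.67, adjusted p = 0.0186). In both genes the regions were far apart beside the gap between arrays of 1 region, though the regions overlapped in no called gene. Tbx1, the T-box factor required for branchiomeric muscle, had 787 and 587 in head, against 207 and 157 in trunk (3.77-fold, log2 1.91 ± 0.24, adjusted p = 0.00136). Isl1, the LIM-homeodomain factor of second heart field cells, had 5482 and 4702 in head, against 1025 and 934 in trunk (5.19-fold, log2 2.38 ± 0.30, adjusted p = 0.00144). The trunk arrays of Isl1, though lower, were far above the median probe set. Lhx2, a LIM-homeodomain factor that acts with Tbx1 in pharyngeal mesoderm, was below the median probe set on both trunk arrays, with 257 and 337 in head, against 4.71 and 22.4 in trunk (at least 2.68-fold, log2 4.84 ± 0.68, adjusted p = 0.003).

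The homeodomain factor Six2 had 718 and 397 in head, against 80.7 and 85.6 in trunk (at least 4.85-fold, log2 2.68 ± 0.31, adjusted p = 0.000873), the head arrays differing between themselves but not overlapping trunk. Ebf1, an early B-cell factor also present in mesenchyme, had 1752 and 1357 in head, against 511 and 400.4 in trunk (3.41-fold, log2 1.77 ± 0.24, adjusted p = 0.00204). Nkx2-5, the cardiac homeodomain factor, had 248 and 113 in head, against 23.3 and 55.9 in trunk (at least 1.52-fold, log2 2.22 ± 0.52, adjusted p = 0.0353). The other 13 heart genes on the array were too dim to be tested. The 1 lower member, Foxc2, a forkhead factor of paraxial mesoderm named after its value was seen, had 549.9 and 349 in head, against 1365 and 1361 in trunk (3.11-fold, log2 −1.64 ± 0.34, adjusted p = 0.0245). The count of higher members was 6 without head replicate 1, 7 without head replicate 2, 6 without trunk replicate 1 and 6 without trunk replicate 2. It was 4 with the coverage covariate and 2 without both arrays numbered 1. Of endothelial markers 12 of 19, of epithelial 8 of 17 and of leukocyte 3 of 6 were higher in head as well, and their part in these differences was not tested.

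Among 12 tested homeobox and related genes of the head skeleton and jaws, 4 were higher and 1 was lower in head. The median was log2 0.79 (0.13 with dim arrays raised). Without the signal filter 4 of 22 were higher and 1 was lower, with a median of log2 1.07. En2, which marks the midbrain-hindbrain border and muscle of the first arch, had 169.8 and 274 in head, against 18.4 and 18.9 in trunk (at least 1.96-fold, log2 3.53 ± 0.53, adjusted p = 0.00406). Lhx8, a LIM-homeodomain factor of the jaw arches, had 132 and 514 in head, against 16.3 and 7.59 in trunk (at least 2.37-fold, log2 4.55 ± 0.74, adjusted p = 0.00616) and was uneven between the head arrays. Prrx2, a paired-related factor of craniofacial mesenchyme, had 403 and 726 in head, against 199 and 119.7 in trunk (3.5-fold, log2 1.81 ± 0.31, adjusted p = 0.00755). Dlx2, a distal-less factor of arch ectomesenchyme, had 132 and 174 in head, against 65.7 and 57.8 in trunk (at least 1.38-fold, log2 1.30 ± 0.30, adjusted p = 0.032). Twist1, a repressor of myogenic bHLH activity present in mesenchyme of head and trunk, went the other way with 374 and 271 in head, against 1073 and 1179 in trunk (3.53-fold, log2 −1.82 ± 0.31, adjusted p = 0.00701). With the coverage covariate 0 of the 4 passed (limma; in the fit without it, 7 of the 12 had an unadjusted p under 0.05). The count was 3 without head replicate 1, 3 without head replicate 2, 3 without trunk replicate 1 and 1 without trunk replicate 2, and 2 without both arrays numbered 1.

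Of 15 tested regulators of the dermomyotome, the somite and limb myoblasts, 8 were lower and 1 was higher in head. The median was log2 −1.88 (−1.04 with dim arrays raised). A member could pass the signal filter through trunk arrays alone. Without the filter 7 of 18 were lower and 0 higher, with a median of log2 −1.6. Meox1 and Meox2 are homeodomain factors of the somite. Meox1 had 159 and 109 in head, against 992 and 1189.7 in trunk (at least 8.23-fold lower in head, log2 −3.05 ± 0.33, adjusted p = 0.000546). Meox2 had 378 and 324 in head, against 1409 and 1169 in trunk (3.67-fold, log2 −1.88 ± 0.22, adjusted p = 0.000819) and was well above the median probe set in head too. Tcf15 (paraxis), the bHLH factor that keeps somites epithelial, had 87.1 and 85.6 in head, against 662 and 976 in trunk (at least 7.33-fold, log2 −3.22 ± 0.41, adjusted p = 0.00144). Sim1, a bHLH-PAS factor of the lateral dermomyotome, had 82.1 and 37.0 in head, against 552 and 666 in trunk (at least 5.53-fold, log2 −3.46 ± 0.38, adjusted p = 0.000546). Dmrt2, which acts upstream of Myf5 in the dermomyotome, had 30.7 and 14.3 in head, against 222 and 383 in trunk (at least 2.66-fold, log2 −3.80 ± 0.57, adjusted p = 0.00408). For these members all head arrays lay below all trunk arrays, but the regions did not overlap in any of the 349 called genes.

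Zic1, a zinc finger factor of dorsal somite and neural tube, was bright in both regions with 1429 and 425 in head, against 6102 and 4846 in trunk (6.98-fold, log2 −2.80 ± 0.43, adjusted p = 0.00461), and was uneven between the head arrays. Pax3, the paired-box factor at the head of the trunk muscle programme, had 335 and 255 in head, against 602 and 899 in trunk (2.52-fold, log2 −1.33 ± 0.33, adjusted p = 0.0434). Its paralogue Pax7 had 44.1 and 59.5 in head, against 86.1 and 136 in trunk and did not pass (log2 −1.08 ± 0.59, adjusted p = 0.288). Met, the receptor that lets limb myoblasts leave the somite, was lower in head (40.0 and 20.6 in head, against 152 and 140.1 in trunk, at least 1.33-fold, log2 −2.35 ± 0.53, adjusted p = 0.032). Cxcr4, a chemokine receptor of migrating myoblasts, was the 1 higher member (298 and 308 in head, against 153 and 160.0 in trunk, 1.94-fold, log2 0.96 ± 0.25, adjusted p = 0.0479). These 2 genes were named after their values were seen. Pax1, a paired-box factor of the sclerotome, the ventral somite part that forms vertebrae, had 48.4 and 52.7 in head, against 414 and 575 in trunk (at least 4.45-fold, log2 −3.27 ± 0.41, adjusted p = 0.00136). The count of lower members of the dermomyotome list was 6 without head replicate 1, 7 without head replicate 2, 5 without trunk replicate 1 and 5 without trunk replicate 2. It was 4 with the coverage covariate and 4 without both arrays numbered 1.

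No tested Hox gene was higher in head. Hox genes give cells their position along the body axis in order of paralog group. Of 8 tested genes of paralog groups 1 to 4, 5 were called lower and all 8 differences were negative, with a median of log2 −1.45 (−1.19 with dim arrays raised). Of 10 tested genes of groups 5 to 13, 7 were called lower and all 10 were negative, with a median of log2 −3.38 (−1.47 raised). A Hox gene could pass the signal filter through trunk arrays alone, so the shared sign of the tested genes is partly a matter of selection. Without the filter, groups 5 to 13 had 22 genes, 17 negative and 5 positive, with a median of log2 −1.60. Groups 1 to 4 then had 9 genes, 8 negative and 1 positive, with a median of −1.34. Hoxa9 had 18.8 and 52.1 in head, against 4942 and 5930.2 in trunk (at least 49.3-fold, log2 −7.44 ± 0.56, adjusted p = 0.000129). Hoxc8, a gene of thoracic level, had 35.2 and 24.5 in head, against 2792 and 3605 in trunk (at least 28.9-fold, log2 −6.76 ± 0.75, adjusted p = 0.000614). In both genes the head arrays were below the median probe set, so that the folds are bounds. Hoxa5 had 31.1 and 13.1 in head, against 839 and 1195 in trunk (at least 9.12-fold, log2 −5.63 ± 0.60, adjusted p = 0.000546). Hoxd9, Hoxb5 and Hoxb6 were called with folds of at least 2.39-fold, at least 2.87-fold and at least 1.81-fold.

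Hox genes of paralog groups 1 to 4 have domains that reach further forward. Among them Hoxc4 had 24.6 and 7.85 in head, against 1745 and 3001 in trunk (at least 20.9-fold, log2 −7.36 ± 0.61, adjusted p = 0.000129). Hoxb4 had 49.3 and 8.69 in head, against 317 and 214 in trunk (at least 2.37-fold, log2 −3.65 ± 0.66, adjusted p = 0.0119). Hoxb3 had 68.9 and 132 in head, against 370.1 and 281 in trunk (at least 2.67-fold, log2 −1.76 ± 0.36, adjusted p = 0.0234). Hoxa3 had 164 and 89.2 in head, against 335 and 280.4 in trunk (at least 2.28-fold, log2 −1.34 ± 0.30, adjusted p = 0.032). In each of these 2 genes 1 head array lay above the median probe set. Hoxd1 was above it on all 4 arrays, with 172 and 147 in head, against 349 and 375 in trunk (2.27-fold, log2 −1.19 ± 0.30, adjusted p = 0.0445). Hoxb2 missed the threshold (50.2 and 134 in head, against 239.7 and 242 in trunk, log2 −1.55 ± 0.41, adjusted p = 0.0539). Of the Hox cofactors, none of 4 tested was called, although 2 had an unadjusted p under 0.05 in limma. Meis1 had the smallest p (604 and 848 in head, against 1792 and 1759 in trunk, log2 −1.31 ± 0.37, adjusted p = 0.0634). The count of lower genes of groups 5 to 13 was 6 without head replicate 1, 7 without head replicate 2, 4 without trunk replicate 1 and 3 without trunk replicate 2. It was 3 with the coverage covariate and 4 without both arrays numbered 1. For groups 1 to 4 it was 3 without head replicate 1, 4 without head replicate 2, 1 without trunk replicate 1 and 1 without trunk replicate 2, and it was 1 with the covariate and 2 without both arrays numbered 1.

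**Figure D3:**
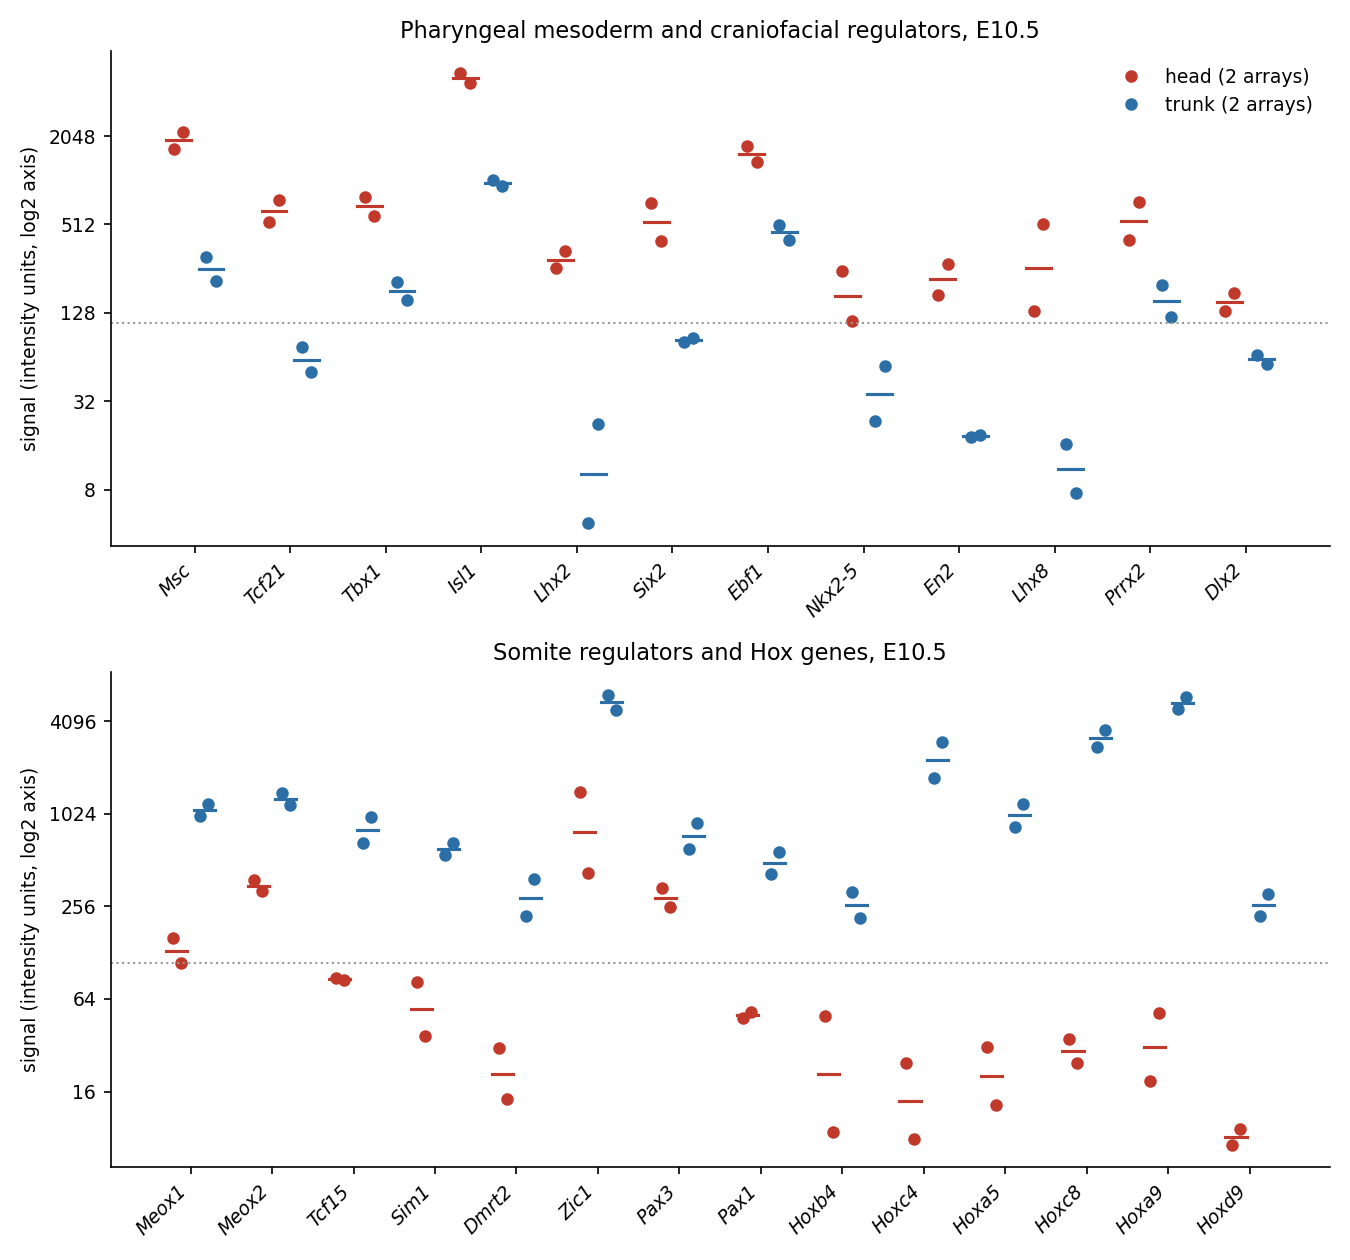
Signal (intensity units, log2 axis) of pharyngeal and craniofacial regulators (top) and of somite regulators and Hox genes (bottom) at E10.5, 2 head arrays in red left of 2 trunk arrays in blue; short bars are means of log2 signal and the dotted line is the median probe set. Hoxa9 lies at 18.8 and 52.1 in head, against 4942 and 5930.2 in trunk.

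Of 20 tested myogenic regulatory factors and their cofactors, 1 was called (5.0%, beside 4.52% of all genes). Myf5, the factor whose activity the Cre label reports, had 2294 and 2120.3 in head, against 1117 and 1150.2 in trunk (1.95-fold higher in head, log2 0.96 ± 0.21, adjusted p = 0.0275). Myod1 had 319 and 216 in head, against 226 and 334 in trunk, and the regions overlapped (log2 −0.07 ± 0.30, adjusted p = 0.913). Myog, which starts differentiation, had 335 and 227 in head, against 607 and 689.7 in trunk and missed the threshold (log2 −1.23 ± 0.36, adjusted p = 0.0729). Myf5 and Myod1, defining markers of muscle progenitors, were above the median probe set on all 4 arrays. Myf6, a late factor of the family, was too dim to be tested, with 16.6 and 9.44 in head, against 25.3 and 21.6 in trunk. Myf5 missed the threshold with the coverage covariate, without both arrays numbered 1 and without the intensity trend. It was also not among the genes that stayed called at each single omission of an array.

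Genes of the contractile apparatus that passed were lower in head with 1 exception. Of 12 tested thin filament genes 5 were lower and 1 was higher, with a median of log2 −0.88 (−0.43 with dim arrays raised). Of 12 thick filament genes 3 were lower, with a median of −1.47 (−0.30 raised). Without the signal filter the median over 17 thin filament genes was log2 −0.06, with 8 positive and 9 negative differences and 3 genes lower. Over 19 thick filament genes it was then −1.20, with 2 genes lower. Of 14 Z-disc and scaffold genes 2 were lower. Of 5 tested genes of excitation and calcium handling 1 was lower, with a median of log2 −1.26, against −0.42 over 15 genes without the filter. The 250 bases before the annotated start are shown for 4 of the 11 lower genes. They carry the E-box CAGCTG, a form to which myogenic factors bind, or the CArG box of serum response factor, and these motifs are in capitals. The genes shown were picked and do not stand for all 11. The windows of Tnnc1, Actn2 and Ryr1, also lower in head, hold neither motif. Sequences are from RefSeq (GRCm38.p6), each the only listed start of its gene, 5′ to 3′ on the strand of the gene. The Acta1 window is chr8:123894776-123895025, minus strand, and the Actc1 window chr2:114052876-114053125, minus strand. The Mylpf window is chr7:127211358-127211607, plus strand, and the Myl1 window chr1:66945057-66945306, minus strand.
Acta1: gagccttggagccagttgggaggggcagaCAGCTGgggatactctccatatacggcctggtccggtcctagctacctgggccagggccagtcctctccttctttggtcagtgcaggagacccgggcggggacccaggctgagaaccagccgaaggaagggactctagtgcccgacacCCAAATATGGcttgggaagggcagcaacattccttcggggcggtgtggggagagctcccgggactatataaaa
Actc1: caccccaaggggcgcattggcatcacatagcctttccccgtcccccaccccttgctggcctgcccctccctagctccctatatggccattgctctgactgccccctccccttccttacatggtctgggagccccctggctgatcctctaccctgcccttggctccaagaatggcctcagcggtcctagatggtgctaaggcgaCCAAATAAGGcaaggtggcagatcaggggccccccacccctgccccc
Mylpf: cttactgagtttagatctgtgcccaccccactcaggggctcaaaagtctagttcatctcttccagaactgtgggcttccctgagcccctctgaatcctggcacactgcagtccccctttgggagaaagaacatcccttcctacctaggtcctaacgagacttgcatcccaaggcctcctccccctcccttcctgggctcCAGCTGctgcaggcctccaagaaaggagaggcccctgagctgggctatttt
Myl1: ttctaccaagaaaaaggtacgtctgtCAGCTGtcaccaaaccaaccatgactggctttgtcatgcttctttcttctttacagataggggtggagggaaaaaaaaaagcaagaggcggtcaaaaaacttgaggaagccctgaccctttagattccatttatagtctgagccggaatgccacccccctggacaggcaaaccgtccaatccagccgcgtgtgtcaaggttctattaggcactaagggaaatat

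All 11 lower genes had such windows, 14 in all because some have more than 1 start. The 2 windows of Tnni1 overlap, as do those of Ldb3, and each pair holds the same CAGCTG or CArG box, so genes and not windows are counted. On both strands, CAGCTG was found in 6 of the 11 genes, against 14.72% of 27025 genes with windows of the same length. A CArG box was found in 3 of the 11, Acta1, Actc1 and Ldb3, against 1.62% of all genes. The wider E-box CANNTG, which includes CAGCTG, was found in 8 of the 11 against 69.3%. CAGGTG or its complement CACCTG was found in 2 of the 11 against 19.43%, and a MEF2 box in 0 of the 11 against 3.42%. These are matches of letters in a short window, and binding was not measured. The contractile genes that were not called were not compared as a group. Whether the motifs go with a lower signal in head was thus not tested.

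Actc1, the cardiac actin that embryonic skeletal muscle also uses, was far above the median probe set in both regions, with 1103 and 2147 in head, against 5595 and 6067 in trunk (3.79-fold lower in head, log2 −1.92 ± 0.41, adjusted p = 0.0275). Acta1, the skeletal actin, had 153 and 116 in head, against 614 and 587 in trunk (4.51-fold, log2 −2.17 ± 0.52, adjusted p = 0.0389). For both actins the head arrays lay well below both trunk arrays, though the regions overlapped in no called gene. Tnni1, slow troponin I, had 26.0 and 30.8 in head, against 283 and 278 in trunk (at least 2.56-fold, log2 −3.31 ± 0.55, adjusted p = 0.00627). Tnnt2, cardiac troponin T, which early skeletal muscle transcribes too, had 43.1 and 110.4 in head, against 414 and 458 in trunk (at least 3.95-fold, log2 −2.66 ± 0.51, adjusted p = 0.0156). Tnnc1, slow and cardiac troponin C, had 94.1 and 66.2 in head, against 268 and 249 in trunk (at least 2.36-fold, log2 −1.71 ± 0.43, adjusted p = 0.0438). The higher member was Tpm3, a tropomyosin also made outside muscle, with 7975 and 6952 in head, against 5374 and 5740.1 in trunk (1.34-fold, log2 0.42 ± 0.11, adjusted p = 0.0466). Another probe set of Tpm3 had the opposite sign.

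Of the thick filament genes, the fast regulatory light chain Mylpf had 34.3 and 77.9 in head, against 247 and 319 in trunk (at least 2.56-fold, log2 −2.44 ± 0.55, adjusted p = 0.032). The alkali light chain Myl1 had 16.1 and 43.6 in head, against 181 and 182 in trunk (at least 1.65-fold, log2 −2.78 ± 0.67, adjusted p = 0.0397). The myosin binding protein Mybph had 7.74 and 3.08 in head, against 131 and 155 in trunk (at least 1.3-fold, log2 −4.87 ± 1.07, adjusted p = 0.0306). In all 3 both head arrays were below the median probe set. The embryonic heavy chain Myh3 had 159 and 238 in head, against 2659 and 1937 in trunk, and missed the threshold with a large standard error (log2 −3.54 ± 1.14, adjusted p = 0.0927). Actn2, the α-actinin of the Z-disc, had 18.9 and 74.4 in head, against 362 and 344 in trunk (at least 3.21-fold, log2 −3.24 ± 0.71, adjusted p = 0.0302). Ldb3, a Z-disc adaptor, had 6.66 and 9.19 in head, against 151 and 118 in trunk (at least 1.22-fold, log2 −4.09 ± 0.96, adjusted p = 0.0359). Ryr1, the calcium release channel of skeletal muscle, had 5.44 and 3.28 in head, against 129 and 93.2 in trunk (log2 −4.70 ± 0.78, adjusted p = 0.00632), with no fold given because the trunk mean did not exceed the median probe set. The calcium store protein Casq2 had 35.5 and 20.9 in head, against 124 and 88.8 in trunk and missed the threshold (log2 −1.94 ± 0.62, adjusted p = 0.0913). Of 7 tested genes of the nerve-muscle synapse none was called by limma. The 1 with an unadjusted p under 0.05 was the receptor subunit Chrna1 (17.6 and 49.7 in head, against 141 and 131 in trunk, log2 −2.20 ± 0.83, adjusted p = 0.141). Of the called contractile genes, none passed with the coverage covariate or without both arrays numbered 1. The count of lower thin filament genes was 0 without head replicate 1, 3 without head replicate 2, 0 without trunk replicate 1 and 0 without trunk replicate 2. That of lower thick filament genes was 0 without head replicate 1, 2 without head replicate 2, 0 without trunk replicate 1 and 0 without trunk replicate 2. The 3′ to middle difference separated the regions, as every called gene did, and its part in these differences was not tested. With that covariate the median of thin filament genes was log2 −1.28, against −0.88 without it. That of thick filament genes was −0.99, against −1.47 without it.

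**Figure D4:**
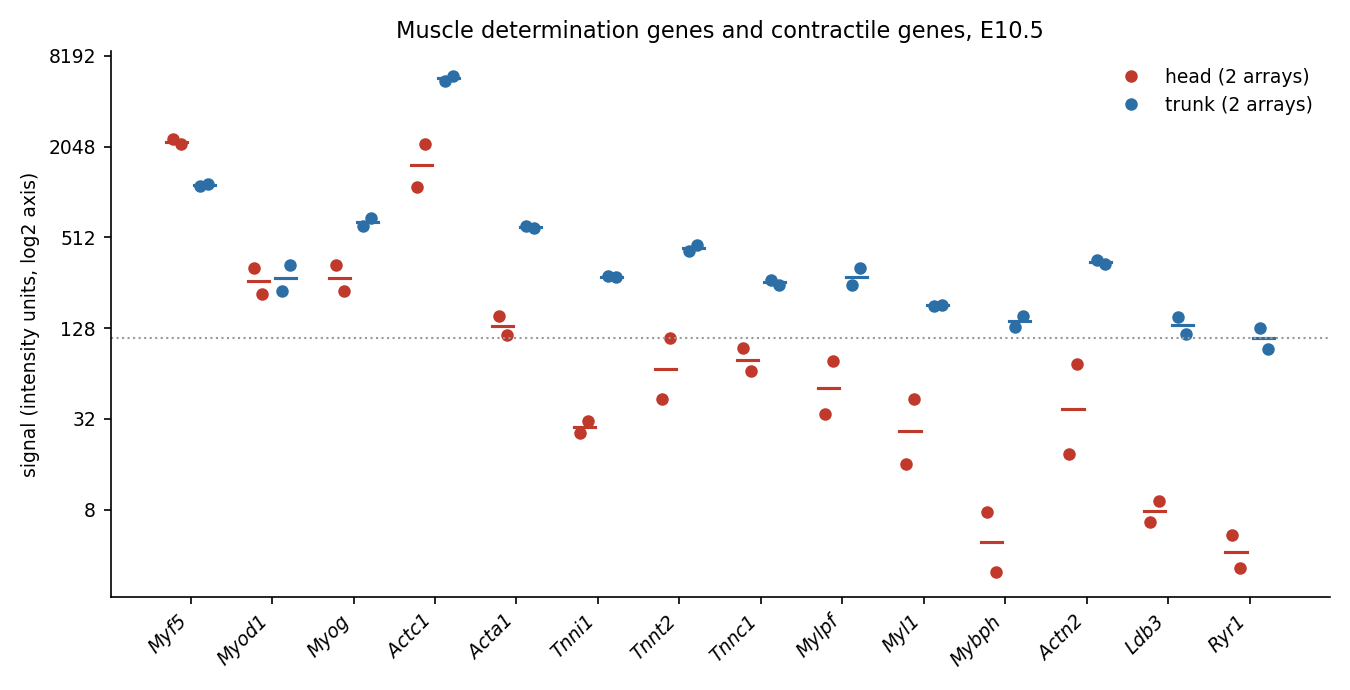
Signal (intensity units, log2 axis) of myogenic factors and contractile genes at E10.5, 2 head arrays in red left of 2 trunk arrays in blue; short bars are means of log2 signal and the dotted line is the median probe set. Actc1 lies at 1103 and 2147 in head, against 5595 and 6067 in trunk, while Myf5 lies higher in head.

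Of 35 proliferation genes 3 were lower in head (8.57%, beside 2.07% of all genes) and 25 had a negative difference, with a median of log2 −0.28. Top2a, the topoisomerase of dividing cells, had 4258 and 4586 in head, against 6532 and 6889 in trunk (1.52-fold, log2 −0.60 ± 0.10, adjusted p = 0.0084). Bub1, a checkpoint kinase, had 2115 and 2032 in head, against 3251 and 3159.5 in trunk (1.55-fold, log2 −0.63 ± 0.15, adjusted p = 0.0333). The cyclin Ccna2 had 1274 and 1292 in head, against 1793 and 1991 in trunk (1.47-fold, log2 −0.56 ± 0.14, adjusted p = 0.0473). These differences were below 2-fold, with the 2 arrays of each region close together. Of 15 genes of cell cycle exit and D cyclins none was called by limma, 4 having an unadjusted p under 0.05. Ccnd2 came nearest (4776 and 4840.2 in head, against 6745 and 6335 in trunk, log2 −0.44 ± 0.12, adjusted p = 0.0562). None of the 3 proliferation calls held with the coverage covariate, where the median was log2 −0.36 and 27 of the 35 differences were negative. The count of lower genes was 0 without head replicate 1, 2 without head replicate 2, 0 without trunk replicate 1 and 0 without trunk replicate 2.

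Signalling genes differed one by one. Over all genes tested 2.45% were called higher and 2.07% lower in head, so that 1 call in a list says little about its pathway. Of 22 Notch genes the 1 called was Dlk1, a noncanonical ligand of muscle precursors, with 77.3 and 180.5 in head, against 598 and 845 in trunk (at least 5.05-fold lower in head, log2 −2.59 ± 0.37, adjusted p = 0.00351). The hedgehog co-receptors Boc and Cdon were the 2 lower of 10 hedgehog genes. Boc had 78.1 and 159 in head, against 411 and 383 in trunk (at least 3.01-fold, log2 −1.83 ± 0.31, adjusted p = 0.00699). Cdon had 7.24 and 38.4 in head, against 228 and 145 in trunk (at least 1.66-fold, log2 −3.45 ± 0.66, adjusted p = 0.0155). The receptor and target Ptch1 overlapped between the regions (5909 and 4506 in head, against 4527 and 3625 in trunk, log2 0.35 ± 0.17, adjusted p = 0.225). Of 12 retinoic acid genes Rdh10, which makes retinaldehyde, was lower (699 and 712 in head, against 1944 and 1668 in trunk, 2.55-fold, log2 −1.35 ± 0.22, adjusted p = 0.00627). Aldh1a2, which makes the acid from it, showed 147 and 134 in head, against 1574 and 715 in trunk and missed the threshold (log2 −2.92 ± 0.77, adjusted p = 0.0539).

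Of 22 Wnt genes 1 was higher and 1 lower (4.55% each, beside 2.45% and 2.07% of all genes). The agonist Rspo2 had 1212 and 953 in head, against 479 and 191 in trunk (3.56-fold, log2 1.83 ± 0.42, adjusted p = 0.0332). The secreted inhibitor Wif1 had 20.6 and 94.5 in head, against 245 and 247 in trunk (at least 2.24-fold, log2 −2.48 ± 0.57, adjusted p = 0.0332). The TGF-β receptor Tgfbr2 was the 1 called of 20 BMP and TGF-β genes, with 1253 and 1303 in head, against 637 and 449 in trunk (2.39-fold higher, log2 1.26 ± 0.22, adjusted p = 0.00953). Fgf13, an intracellular FGF relative, was the 1 called of 12 FGF genes (805 and 1031 in head, against 490.2 and 286 in trunk, 2.43-fold higher, log2 1.28 ± 0.31, adjusted p = 0.0408). Of 17 genes of the PDGF and IGF axes 4 were higher and 1 was lower, the higher ones all binding proteins or a clearance receptor of IGF. Igfbp3 had 401 and 799 in head, against 251 and 245 in trunk (2.28-fold, log2 1.19 ± 0.28, adjusted p = 0.0335). Igfbp2 had 1057 and 923 in head, against 538 and 570.3 in trunk (1.78-fold, log2 0.83 ± 0.21, adjusted p = 0.0466). Their relative Kazald1 had 159 and 244 in head, against 9.65 and 20.8 in trunk (at least 1.79-fold, log2 3.80 ± 0.75, adjusted p = 0.0186). Igf2r, which clears IGF2, had 1892 and 1544 in head, against 1037 and 1043 in trunk (1.64-fold, log2 0.72 ± 0.17, adjusted p = 0.0353). Another of its probe sets had the opposite sign. Pdgfra, the receptor of mesenchymal progenitors, was the lower one (1696 and 826 in head, against 3007 and 2499 in trunk, 2.32-fold, log2 −1.21 ± 0.28, adjusted p = 0.032). The count of higher genes of these axes was 1 without head replicate 1, 2 without head replicate 2, 0 without trunk replicate 1 and 0 without trunk replicate 2, and 1 with the coverage covariate.

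Of 27 guidance genes 3 were higher (11.1%) and 2 lower (7.41%) in head, beside 2.45% and 2.07% of all genes. Ntn1, a netrin, had 144 and 165 in head, against 1132 and 1985 in trunk (9.71-fold lower, log2 −3.28 ± 0.36, adjusted p = 0.000614). Slit3, a Robo ligand, had 24.2 and 15.4 in head, against 175 and 192 in trunk (at least 1.67-fold lower, log2 −3.25 ± 0.44, adjusted p = 0.0022). Plxnd1, the semaphorin receptor of endothelium, had 607 and 835 in head, against 153 and 126 in trunk (5.13-fold higher, log2 2.36 ± 0.36, adjusted p = 0.00453). The ephrins Efnb2 and Efna1 were 1.55-fold and at least 1.52-fold higher. Of 48 matrix genes 3 were lower (6.25%) and none higher. Col14a1, a fibril-associated collagen, had 148 and 91.1 in head, against 501 and 600.0 in trunk (at least 4.31-fold, log2 −2.24 ± 0.30, adjusted p = 0.00214). Lama1, a chain of the laminin around the early myotome, had 162 and 149 in head, against 580.2 and 601 in trunk (3.8-fold, log2 −1.93 ± 0.29, adjusted p = 0.00406). Col5a1 had 832 and 644 in head, against 1507 and 1306 in trunk (1.92-fold, log2 −0.94 ± 0.22, adjusted p = 0.0378). Of 16 adhesion and fusion genes the 1 called was Ncam1, a neural cell adhesion molecule also on myoblasts (1455 and 1228 in head, against 2184 and 2242 in trunk, 1.66-fold lower, log2 −0.73 ± 0.18, adjusted p = 0.0429), with a probe set of opposite sign. Of the signalling, guidance, adhesion and matrix genes named as called, Ntn1, Slit3, Col14a1 and Lama1 passed at each single omission of an array. The other genes named as called in these lists missed the threshold at 1 omission or more. With the coverage covariate Ntn1 passed, while Slit3, Col14a1 and Lama1 did not.

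Further genes among the largest differences belonged to no list. C1qtnf3, a secreted C1q and TNF related protein, had 4.93 and 10.6 in head, against 1366 and 1446 in trunk (at least 12.8-fold lower in head, log2 −7.60 ± 0.68, adjusted p = 0.000183). Fap, a surface protease of mesenchyme, had 475 and 369 in head, against 2438 and 2211 in trunk (5.55-fold, log2 −2.47 ± 0.24, adjusted p = 0.000298). Bnc1, a zinc finger gene, had 131 and 166 in head, against 1030.4 and 1151 in trunk (7.38-fold, log2 −2.88 ± 0.33, adjusted p = 0.000819). Arg1, an arginase, was at least 6.19-fold lower and Sh3gl3, an endophilin, 5.49-fold lower. Pcolce2, an enhancer of procollagen processing, had 407 and 558 in head, against 75.2 and 81.2 in trunk (at least 4.33-fold higher, log2 2.61 ± 0.26, adjusted p = 0.000483). S100a10, a partner of annexin A2, had 2014 and 2383 in head, against 629 and 416 in trunk (4.28-fold higher, log2 2.10 ± 0.25, adjusted p = 0.00104). In each of these genes the 2 arrays of a region lay closer together than the regions did, but they were picked as the largest differences among called genes.

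Several lists of markers of cells other than muscle had members higher in head. Of 19 tested endothelial genes 12 were higher and none lower, all 19 differences were positive and the median was log2 1.68. Their summed signal was 9572 and 9831 in head, against 2727 and 2461 in trunk. An endothelial gene could pass the signal filter through head arrays alone, so the shared sign is partly a matter of selection. Without the filter 7 of 22 endothelial genes were higher, 21 differences were positive and 1 negative, with a median of log2 1.64. Sox17, a transcription factor of arterial endothelium and endoderm, had 1694 and 1701 in head, against 231 and 213 in trunk (7.65-fold, log2 2.94 ± 0.47, adjusted p = 0.00505). Cldn5, the claudin of endothelial junctions, had 1339 and 1027 in head, against 267 and 251 in trunk (4.53-fold, log2 2.18 ± 0.31, adjusted p = 0.00317). Flt4, Flt1, Plvap and Sox7 were 4.96-fold, 3.15-fold, 4.85-fold and at least 3.07-fold higher. The defining marker Pecam1 was below the filter, with 15.8 and 12.5 in head, against 7.27 and 11.7 in trunk (named after its value was seen). The count of higher endothelial genes was 6 without head replicate 1, 7 without head replicate 2, 4 without trunk replicate 1 and 3 without trunk replicate 2. With the coverage covariate and without both arrays numbered 1 it was 0 (limma), with medians of log2 1.61 and 1.94.

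Of 17 tested epithelial genes 8 were higher and none lower, with a median of log2 1.22. Their summed signals were 7767 and 5543 in head, against 1944 and 3014 in trunk. Without the filter, which head arrays alone could satisfy, 6 of 21 epithelial genes were higher. Of these 21 differences 19 were positive and 2 negative, with a median of log2 1.13. Epcam had 655 and 602 in head, against 219 and 281 in trunk (2.53-fold, log2 1.34 ± 0.20, adjusted p = 0.00406). The keratin Krt8 had 527 and 360.3 in head, against 128 and 167 in trunk (2.98-fold, log2 1.57 ± 0.30, adjusted p = 0.0155). The endoderm factor Foxa1 had 973 and 398 in head, against 133 and 159.8 in trunk (4.28-fold, log2 2.10 ± 0.46, adjusted p = 0.0301). The desmosomal gene Dsp was 3.4-fold higher, with a probe set of opposite sign, the splicing factor Esrp1 at least 3.51-fold and the stratified epithelium factor Trp63 3.5-fold. The count was 2 without head replicate 1, 7 without head replicate 2, 1 without trunk replicate 1 and 4 without trunk replicate 2. It was 4 with the covariate and 0 without both arrays numbered 1 (limma). Of 6 tested leukocyte genes 3 were higher, with a median of log2 1.64. Their summed signals were 3564 and 2049 in head, against 746 and 735 in trunk. A leukocyte gene could also pass the signal filter through head arrays alone. Without the filter 2 of 17 leukocyte genes were higher, 16 differences were positive and 1 negative, with a median of log2 1.07. The receptor Csf1r had 1354 and 399 in head, against 115 and 164 in trunk (5.34-fold, log2 2.42 ± 0.53, adjusted p = 0.0306) and was uneven between the head arrays. Laptm5 and Adgre1 were 4.88-fold and 2.46-fold higher, as was the actin bundler Lcp1 (at least 4.67-fold). The pan-leukocyte marker Ptprc was below the filter with 62.6 and 55.8 in head, against 35.6 and 23.5 in trunk (named after its value was seen). The count was 1 without head replicate 1, 4 without head replicate 2, 1 without trunk replicate 1 and 1 without trunk replicate 2. It was 0 with the covariate and 0 without both arrays numbered 1 (limma; 5 of the 6 had an unadjusted p under 0.05 with all arrays), with medians of log2 1.55 and 1.30 and all 6 differences positive.

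Of 18 tested neuronal genes 1 was called, the growth cone gene Gap43 with 463 and 488 in head, against 178 and 149.6 in trunk (2.92-fold higher, log2 1.54 ± 0.35, adjusted p = 0.032). Of the 18 differences 15 were positive, with a median of log2 0.89, and the summed signal was 14341 and 15823 in head, against 9519 and 9248 in trunk. Vim, an intermediate filament of progenitors and mesenchyme, was the 1 called of 7 neural progenitor genes (7429.9 and 7139.9 in head, against 4856 and 4641 in trunk, 1.53-fold higher, log2 0.62 ± 0.12, adjusted p = 0.0137). Gap43 missed the threshold with the coverage covariate and without the signal filter, where the neuronal medians were log2 0.55 and 0.8. Vim missed it with the covariate, and neither gene stayed called at each single omission of an array. Of 6 erythroid genes none was called by limma (3 with an unadjusted p under 0.05), and the embryonic globin Hbb-y was bright on all arrays with 14054 and 13688 in head, against 10789 and 8254 in trunk (log2 0.56 ± 0.22, adjusted p = 0.155). The part of these cell types in the differences of the muscle genes was not tested.

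Of 18 genes of glycolysis and hypoxia 1 was higher and 1 lower (5.56% each, beside 2.45% and 2.07% of all genes). The glucose transporter Slc2a1 had 3267 and 2782 in head, against 1262 and 1297 in trunk (2.36-fold higher, log2 1.24 ± 0.23, adjusted p = 0.0119). Egln1, an oxygen sensor, had 1092 and 1193 in head, against 1811 and 2094 in trunk (1.71-fold lower, log2 −0.77 ± 0.18, adjusted p = 0.0332). Of 27 respiratory chain genes 2 were higher (7.41%). Cycs, cytochrome c, had 8744 and 8889 in head, against 5503 and 6019 in trunk (1.53-fold, log2 0.62 ± 0.15, adjusted p = 0.0363). Cox5a, a subunit of complex IV, had 9309 and 8905 in head, against 6338 and 6776 in trunk (1.39-fold, log2 0.47 ± 0.12, adjusted p = 0.0418), and a probe set of it had the opposite sign. The medians of these 2 lists were log2 −0.03 and 0.06, near that of all genes. No respiratory chain gene was called higher with any 1 array left out or with the covariate (limma; 8 of the 27 had an unadjusted p under 0.05 with all arrays). Of the 125 called genes with several probe sets, 36 had a probe set that pointed the other way, and in 0 genes were probe sets called in both directions.

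The differences at E10.5 were set beside those one day earlier and one day later, measured on other arrays but with the same estimate of spread. At E9.5, 361 genes were called higher in head (4.67%) and 96 lower (1.24%), together 5.92% of genes. At E11.5, 55 higher (0.712%) and 105 lower (1.36%). Of the 189 genes higher at E10.5, 97 were also called higher at E9.5, which is 51.3% of the E10.5 genes and 26.9% of the E9.5 genes. At E11.5, 29 were also called higher, which is 15.3% of the E10.5 genes and 52.7% of the E11.5 genes. Of the 160 lower genes, 47 were also called lower at E9.5 (29.4%, or 49.0% of the E9.5 genes) and 41 at E11.5 (25.6%, or 39.0% of the E11.5 genes). Called at E10.5 alone were 85 of the higher and 97 of the lower genes. Pharyngeal regulators had 11, 8 and 4 members higher in head at E9.5, E10.5 and E11.5, and Hox genes of groups 5 to 13 had 8, 7 and 5 members lower. Of thin filament genes 0, 5 and 0 were lower, of thick filament genes 0, 3 and 0, and of neuronal genes 14, 1 and 1 were higher. These are counts of calls at each stage, and most differences between stages did not pass a test of their own.

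In that test, the head minus trunk difference at E10.5 differed from that at E9.5 in 30 genes (limma, 0.389% of those tested), 4 of them with a more positive difference (0.0518%) and 26 with a more negative one (0.337%). Myf5 had signals of 525 and 771 in head, against 999 and 1305 in trunk at E9.5. At E10.5 head was the region with the higher Myf5 signal (difference of differences log2 1.80 ± 0.29, adjusted p = 0.0253). Head Myf5 was brighter at E10.5 than at E9.5 on both arrays, while trunk Myf5 stayed within its E9.5 range. Hoxd1 had 26.0 and 38.2 in head, against 393 and 574 in trunk at E9.5, a gap that was smaller at E10.5 (2.73 ± 0.42, adjusted p = 0.023). Fap had 43.0 and 68.1 in head, against 2031 and 1850.3 in trunk at E9.5 (2.69 ± 0.33, adjusted p = 0.00418). For both, the head arrays were brighter at E10.5 than at E9.5. Pcolce2 had 178 and 218 in head, against 179.6 and 122 in trunk at E9.5 (2.20 ± 0.37, adjusted p = 0.0329), where 1 trunk array lay within the range of head and the other below it.

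Among the 26 genes, Tbx1 had 975 and 1064 in head, against 66.1 and 73.1 in trunk at E9.5 and remained higher in head at E10.5 by less (−1.96 ± 0.34, adjusted p = 0.0342). The neurogenic factor Neurod1 had 2287 and 2822 in head, against 74.2 and 121 in trunk at E9.5 and 884 and 1004 in head, against 407 and 489 in trunk at E10.5 (−3.67 ± 0.40, adjusted p = 0.00418). Dcx, a microtubule protein of young neurons, had 775 and 1444 in head, against 51.2 and 85.0 in trunk at E9.5 and 1958 and 1909 in head, against 1678 and 1509 in trunk at E10.5 (−3.72 ± 0.46, adjusted p = 0.00418). In both the trunk arrays were brighter at the later stage. Rgs4, a regulator of G-protein signalling, had 429 and 474 in head, against 14.3 and 21.0 in trunk at E9.5 and 265 and 166 in head, against 454 and 284 in trunk at E10.5 (−5.48 ± 0.53, adjusted p = 0.00229). The slow heavy chain Myh7 had 646 and 274 in head, against 35.9 and 40.8 in trunk at E9.5 and 159 and 76.4 in head, against 479 and 351 in trunk at E10.5 (−5.36 ± 0.70, adjusted p = 0.00644), the brighter region being head at the first stage and trunk at the second. Ryr1 was below the median probe set on all arrays of E9.5, with 6.20 and 14.3 in head, against 3.05 and 3.19 in trunk (−6.29 ± 1.10, adjusted p = 0.0356), and was above it in trunk replicate 1 at E10.5. At E11.5 Ryr1 had 257 and 254 in head, against 270.0 and 135 in trunk, above the median probe set in both regions.

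Between E10.5 and E11.5 the difference changed in 0 genes (0%; 785 had an unadjusted p under 0.05 in limma, and the smallest adjusted p was 0.407). Actc1 had a difference of log2 0.17, −1.92 and 0.05 at E9.5, E10.5 and E11.5, and Tnni1 of −0.78, −3.31 and −1.08. Msc had 3.95, 2.90 and 2.26, and Hoxa9 had −7.08, −7.44 and −6.65. Msc and Hoxa9 thus kept 1 sign at the 3 stages, while the Actc1 difference lay near 0 at the first and the last.

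**Figure D5:**
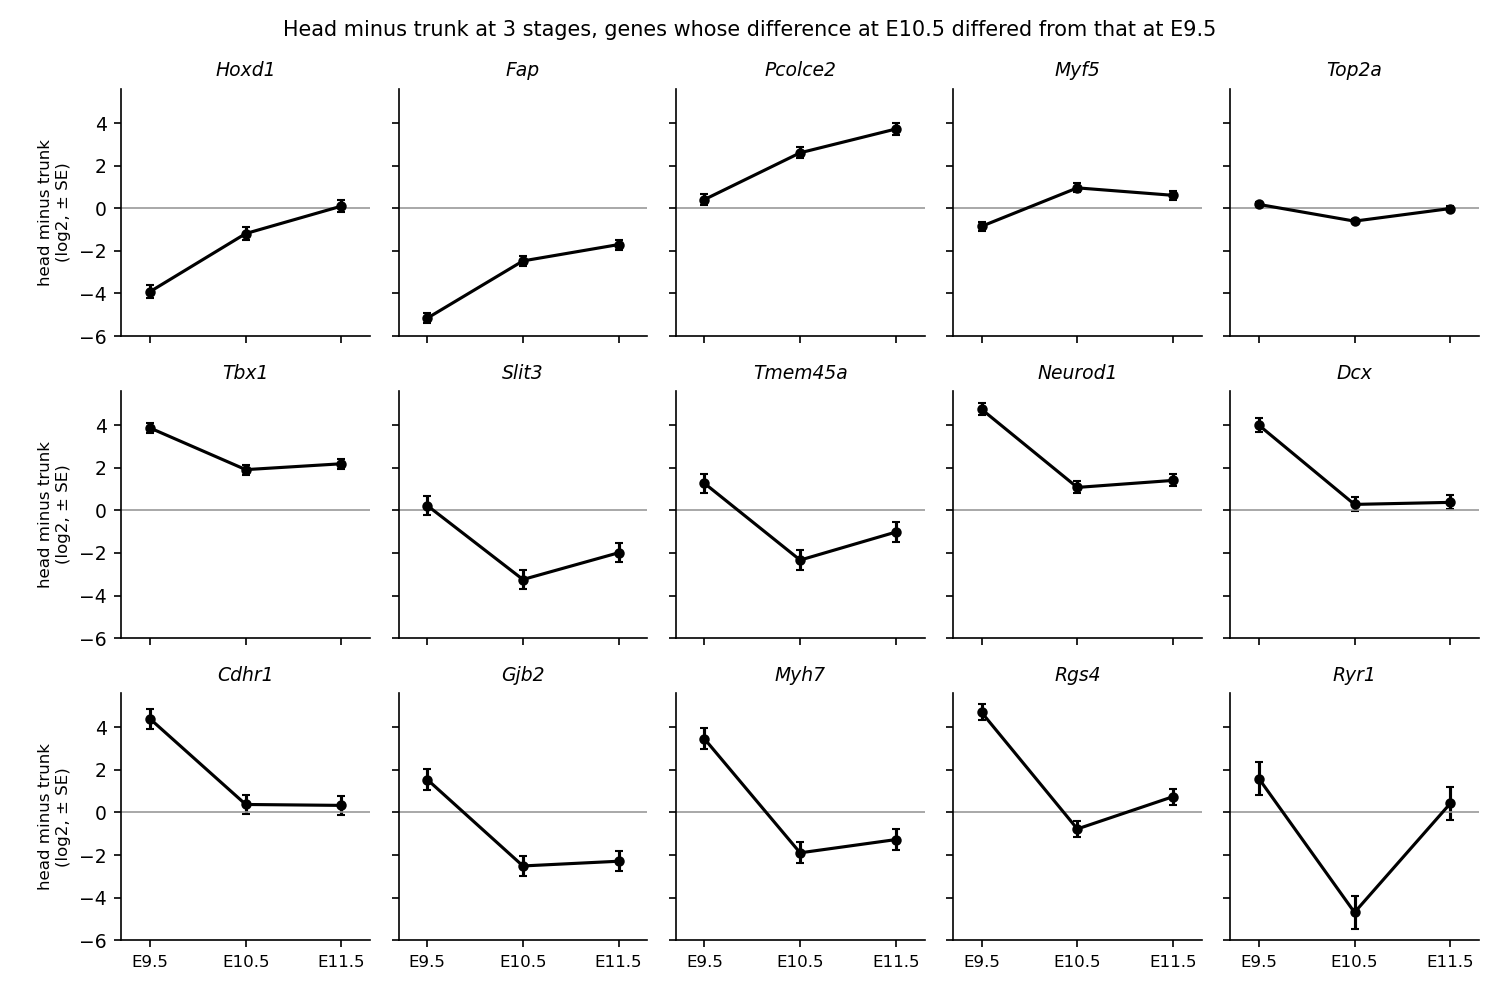
Fitted head minus trunk difference (log2, vertical axis; bars are SE from limma, 2 arrays per region and stage) at E9.5, E10.5 and E11.5 for the 15 named genes whose difference at E10.5 differed from that at E9.5. Myf5 moves across 0 to 0.96 at E10.5, and Ryr1 reaches −4.70.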

How the data were processed

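Per the file, the deposited values are array intensities, 1 column for each of 12 arrays and 1 row for each of 22690 probe sets, on a linear scale; MAS5 and Affymetrix Expression Console made them, per the submitters' processing notes, which name no version. Per the labels, RNA of sorted cells was extracted with QIAzol, amplified, and hybridised as biotinylated cRNA. The sources used here do not say whether a normalization followed; the array medians were nearly equal, and log2 was taken without another one. Of the probe sets, 64 were controls, 20380 stood for 1 gene by the platform annotation (20351 matched to the GRCm38.p6 gene table by Entrez identifier, with 0 symbols changed), 691 for several and 1555 for none. Only those with 1 gene were used, if at least 2 of the 12 arrays were above their median, and the brightest stood for its gene, which left 7722 genes.

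limma 3.58.1 (R 4.3.3) was fitted to all 12 arrays with 1 mean per group for 6 groups, and an intensity trend. Tests were two-sided, the residual degrees of freedom were 6 and the prior ones 5.87, and p-values were adjusted over all genes after Benjamini and Hochberg, with a threshold of 0.05. The number of arrays limits the precision. The contrasts were head minus trunk at E10.5 and its difference from that at E9.5 and at E11.5. A fold is a bound where an array of the dimmer side was below its median, and none is given where that bound is under 1. The genes compared, the gene lists and the rule for naming were chosen with earlier results of these data known, so that no list is independent evidence. Named are, among called genes with arrays that do not overlap, the 15 largest and 15 most negative differences with dim arrays raised; the 8 largest and 8 most negative called differences between stages; from each list described, at most 6 members, those with the smallest p; and in every case Myf5, Myod1, Myog, Myf6, Pax3, Pax7, Tbx1, Isl1, Msc, Tcf21, Lhx2 and Xist. Other genes carry the remark that they were named with values in view.

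Alternatives were quantile normalization, median centring, log2(signal + 50), no filter, a filter of 4 arrays, the mean of probe sets, no probe sets ending in _s, _x or _a, no intensity trend, array weights, a replicate block, the omission of arrays, the 4 arrays alone and, chosen after the data were seen, the coverage covariate.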

Additional observations from a re-analysis of the deposited data

Results flagged for a closer look

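For 15 of the named genes the head minus trunk difference at E10.5 differed from that at E9.5 by limma's test of the difference itself, on the log2 scale and as E10.5 minus E9.5. It was more positive at E10.5 for Hoxd1 (2.73), Fap (2.69), Pcolce2 (2.20) and Myf5 (1.80). It was more negative for Ryr1 (−6.29), Rgs4 (−5.48), Myh7 (−5.36), the connexin Gjb2 (−4.06), the cadherin relative Cdhr1 (−4.02), Dcx (−3.72), Neurod1 (−3.67), Tmem45a (−3.61), Slit3 (−3.48), Tbx1 (−1.96) and Top2a (−0.79). Gjb2 had 179 and 139 in head, against 34.6 and 84.5 in trunk at E9.5. At E10.5 it had 87.1 and 81.9 in head, against 482 and 482 in trunk. Cdhr1 was above the median probe set in head at E9.5 (199 and 343 in head, against 8.71 and 17.6 in trunk) and below it on all arrays of E10.5 (81.4 and 87.7 in head, against 64.3 and 66.1 in trunk). Tmem45a had 82.8 and 49.1 in head, against 20.5 and 34.0 in trunk at E9.5 and 22.7 and 35.6 in head, against 176 and 117 in trunk at E10.5, so that trunk alone was above the median at the later stage. Slit3 had 127 and 106 in head, against 90.1 and 109 in trunk at E9.5, where the regions overlapped, and Top2a had 5659 and 5371 in head, against 4481 and 5257 in trunk there. Without both E10.5 arrays numbered 1, 0 of the 30 genes passed, and single omissions of an E10.5 array gave 7 to 39 genes.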

How the results depend on the processing

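The 349 genes called at E10.5 became 224 without probe sets ending in _s, _x or _a (6138 genes tested, 103 higher and 121 lower), 192 without the intensity trend, 45 with the coverage covariate (chosen after the data were seen), 34 without both arrays numbered 1, and 679 with the 4 arrays of E10.5 alone. Single omissions, where the lone array is assumed to vary like the other groups, gave 64 to 484. The labels do not say whether equal replicate numbers of head and trunk share embryos. Across genes, the replicate 1 minus 2 differences of head and trunk correlated at r = 0.0057, −0.000534 and −0.0956 at the 3 stages. Correlations this small do not settle that question, and Xist was low in replicate 1 of both regions at E10.5. The replicate block gave 213 genes, of which 198 were among the 349. For the difference between E10.5 and E9.5 the 30 genes became 17 without the trend, 19 with the replicate block, 10 with the covariate, 0 without both arrays numbered 1 (by limma), and 7 to 39 under single omissions. For the difference between E10.5 and E11.5 the count of 0 became 17 without head replicate 2, so that single omissions gave 0 to 17. Other settings kept these counts within 1.5 times; quantile normalization and median centring gave 352 and 351. Of 104 called genes named here, 26 passed with the covariate, 23 without both arrays numbered 1 and 80 with the replicate block, and 30 at each of the 4 single omissions. Signs turned for Pax7 with the covariate (0.11), Myod1 under single omissions (−0.35 to 0.21), Cox5a without _s, _x and _a probe sets (−0.08), and Xist (−0.11 for the mean of probe sets, −1.06 without _s, _x and _a, −2.19 to 3.45 under single omissions). The cause of these changes was not tested. For 104 of the 349 genes only a bound on the fold is known, and for 1, Ryr1, no fold.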

Other observations

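Several groups of genes had no call between head and trunk at E10.5. Of 8 genes of neural crest and Schwann precursors 0 passed in limma, 2 with an unadjusted p under 0.05, and the median was log2 −0.07. Of 15 immediate early and heat shock genes, which respond to the handling of cells, 0 passed, 2 with an unadjusted p under 0.05, and the median was log2 0.24. Of 4 tested cartilage genes 0 passed, and 0 had an unadjusted p under 0.05. Of 4 tested genes of X inactivation and the Y chromosome 0 passed, and 0 had an unadjusted p under 0.05.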
